A study of Mus musculus with 8 samples.

Results

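The genes described here are 10 immediate early genes: the AP-1 subunits Fos, Fosb, Fosl1, Jun and Junb, the zinc finger factors Egr1 and Egr2, the stress-induced factor Atf3, and Ier2 and Ier3. They were found by current or older symbol among the names of all probes, which gave 12 probes for the 10 genes, out of 41174 probes and 27670 genes in all. Liver RNA of C57BL/6 mice aged 6 months was hybridised to 8 one-colour Agilent arrays, 2 for each of 4 groups. KO ENU mice carried Albumin-Cre with both Dicer1 alleles floxed (Albumin-Cre;Dicer1loxP/loxP) and received N-ethyl-N-nitrosourea (ENU), a DNA-alkylating mutagen, as 1 intraperitoneal dose of 120 mg/kg in 2 ml/kg, with liver measured 15 days later. WT ENU mice were Dicer1loxP/loxP littermates without the Cre and were dosed in the same way. KO vehicle and WT vehicle mice had the same 2 genotypes and received dimethylsulfoxide in the same volume, and the labels give no day for them. All 4 groups thus carried the floxed alleles, and the littermates called WT here are floxed controls. The albumin promoter drives Cre in hepatocytes, and which liver cells had lost Dicer1 cannot be read from whole-liver RNA. Dicer1 is the enzyme that cuts microRNA precursors.

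Immediate early genes are switched on within minutes of a stimulus without new protein synthesis, and their mRNAs are short-lived. Growth factor and stress signals reach them through the ERK and JNK kinases, serum response factor bound at CArG boxes, and CREB or ATF factors bound at cAMP response elements. Fos and Jun family proteins pair to form AP-1, and in liver several of these genes are known for their early rise after partial hepatectomy or injury, and for rising when tissue is handled.

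Sequence upstream of the annotated start is printed for the 3 members that rose in KO livers, Egr2, Atf3 and Ier3, and for Jun and Fos, whose probes were spotted repeatedly on each array. Starts of 7 members were read from the RefSeq table of assembly GRCm38.p6. Each run is the 150 bases that end just before the start, 5′ to 3′ on the gene's strand, with motif matches in capitals: the CArG box, the ATF motif TGACNTCA, the AP-1 motif TGANTCA, the cAMP response element core TGACG and the EGR motif GCGGGGGCG, searched on both strands. A TGACNTCA whose N is G also holds the core. Egr2 has 5 annotated starts, and the third along the chromosome is shown, at chr10:67537719-67537868 on the plus strand. Its matches depend on the start chosen. The Egr2 window at chr10:67535349-67535498 held none of the motifs, and that at chr10:67537416-67537565 held a CArG box but no TGACG. The windows at chr10:67537720-67537869 and chr10:67537780-67537929 overlap the one shown and hold the same CArG box. Fos is at chr12:85473740-85473889 (plus strand), Jun at chr4:95052223-95052372 (minus strand), Atf3 at chr1:191183334-191183483 (minus strand) and Ier3 at chr17:35821563-35821712 (plus strand).
Egr2: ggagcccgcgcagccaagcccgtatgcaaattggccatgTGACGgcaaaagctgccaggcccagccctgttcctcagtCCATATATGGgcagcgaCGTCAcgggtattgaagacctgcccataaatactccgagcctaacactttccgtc
Fos: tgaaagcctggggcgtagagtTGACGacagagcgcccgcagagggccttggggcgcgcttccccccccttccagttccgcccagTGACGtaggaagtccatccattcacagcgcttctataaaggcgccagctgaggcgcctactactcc
Jun: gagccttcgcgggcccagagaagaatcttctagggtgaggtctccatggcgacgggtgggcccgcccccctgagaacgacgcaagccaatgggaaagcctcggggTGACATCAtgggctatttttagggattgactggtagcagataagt
Atf3: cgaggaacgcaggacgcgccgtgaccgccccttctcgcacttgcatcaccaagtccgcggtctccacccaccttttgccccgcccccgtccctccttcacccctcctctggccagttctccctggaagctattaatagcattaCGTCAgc
Ier3: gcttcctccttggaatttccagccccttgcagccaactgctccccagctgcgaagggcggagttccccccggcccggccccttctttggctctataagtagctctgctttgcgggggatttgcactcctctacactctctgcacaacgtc
The Egr2 run holds a CArG box at positions -72 to -63 from the start and TGACG at -111 to -107 and at -55 to -51. A CArG box lay in 0.916% of the 32851 windows of this length in the table, a share per window, while 5 windows were searched for Egr2. TGACG, found in 13.3% of all windows, matched in Fos at -129 to -125 and at -66 to -62 and in Atf3 at -7 to -3. Jun held TGACNTCA at -45 to -38, a match present in 5.70% of windows. In the Ier3 window none of the letters capitalised elsewhere was found, and TATAA, present in 14.2% of windows, lay at -58 to -54. These are matches of letters and not measured binding sites.

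Signal is given as the log2 of the background-corrected intensity minus the 75th percentile of its array, so 0 is the signal of a probe at that percentile and a difference of 1 is a 2-fold change. The share of spots well above background ranged from 54.7% to 69.3% over the arrays, with 0 saturated spots. The 75th percentile signal was 671 to 681 in KO ENU, 504 to 524 in WT ENU, 629 to 674 in KO vehicle and 437 to 443 in WT vehicle. Over 152 probes spotted at least 5 times, arrays a and b of a group had a median absolute difference of 0.553 to 0.741 in units of the spot standard error, where spot noise alone gives 0.688, and arrays of different groups had 13.7 to 25.9. Arrays a and b were therefore counted as 1 RNA sample per group. A difference between 2 groups then has no test. Only the average difference between genotypes, or between treatments, over the 4 RNA samples was tested, with limma and Benjamini-Hochberg adjustment over 18153 genes, at an adjusted p under 0.05 with 1 residual degree of freedom. Nothing in the labels says whether an RNA sample is 1 animal or a pool. The only residual of the fit is the ENU difference in KO minus that in WT, which limma draws towards a value common to all genes. The p-values and standard errors rest on that residual and do not measure a spread between replicate animals. The 2 RNA samples of a genotype differ in treatment and slide. Slide 1 carried the ENU arrays and slide 2 the vehicle arrays, so an ENU effect cannot be told apart from a slide effect. Within each slide, KO arrays took positions 1 and 2 and WT arrays positions 3 and 4, so that genotype cannot be told apart from position either. A Dicer1 probe that spans a splice junction was 2.85-fold lower in KO than in WT livers after ENU and 5.50-fold lower on vehicle, and a second Dicer1 probe was 1.19-fold and 1.41-fold lower. The labels call the mice female, yet all 4 Y-linked genes looked up had a probe well above background on all 8 arrays.

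Of the 10 members, 9 were well above background on both arrays of at least 1 group and were tested, and 6 were so on all 8 arrays. Egr2, Ier3 and Atf3 rose in KO livers relative to WT livers, on average by 3.65, 3.83 and 2.49 on the log2 scale. For Egr2 and Ier3 the averages take in WT arrays that were not well above background, at their own signal, and with another background correction (normexp) they were 2.01 and 1.79. Ier3 passed the filter on dim probes only through its KO groups, where it was high, so its call is a description. The calls are 3 of 9 members, where 32.2% of all genes tested were called, 16.9% as higher in KO and 15.3% as lower. Of the 5840 genes called, 3062 were higher and 2778 lower, while with median centring 2764 were higher and 4779 lower. Jun was 4.98-fold higher in KO than in WT livers after ENU and 1.22-fold higher on vehicle, while Egr1 was 1.39-fold higher after ENU and 3.30-fold higher on vehicle. Ier2 lay within 0.20 log2 units between the genotypes in both treatments. No member passed the test for ENU against vehicle, for which limma called 0 of 18153 genes (3986 had an unadjusted p under 0.05).

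**Figure D1:**
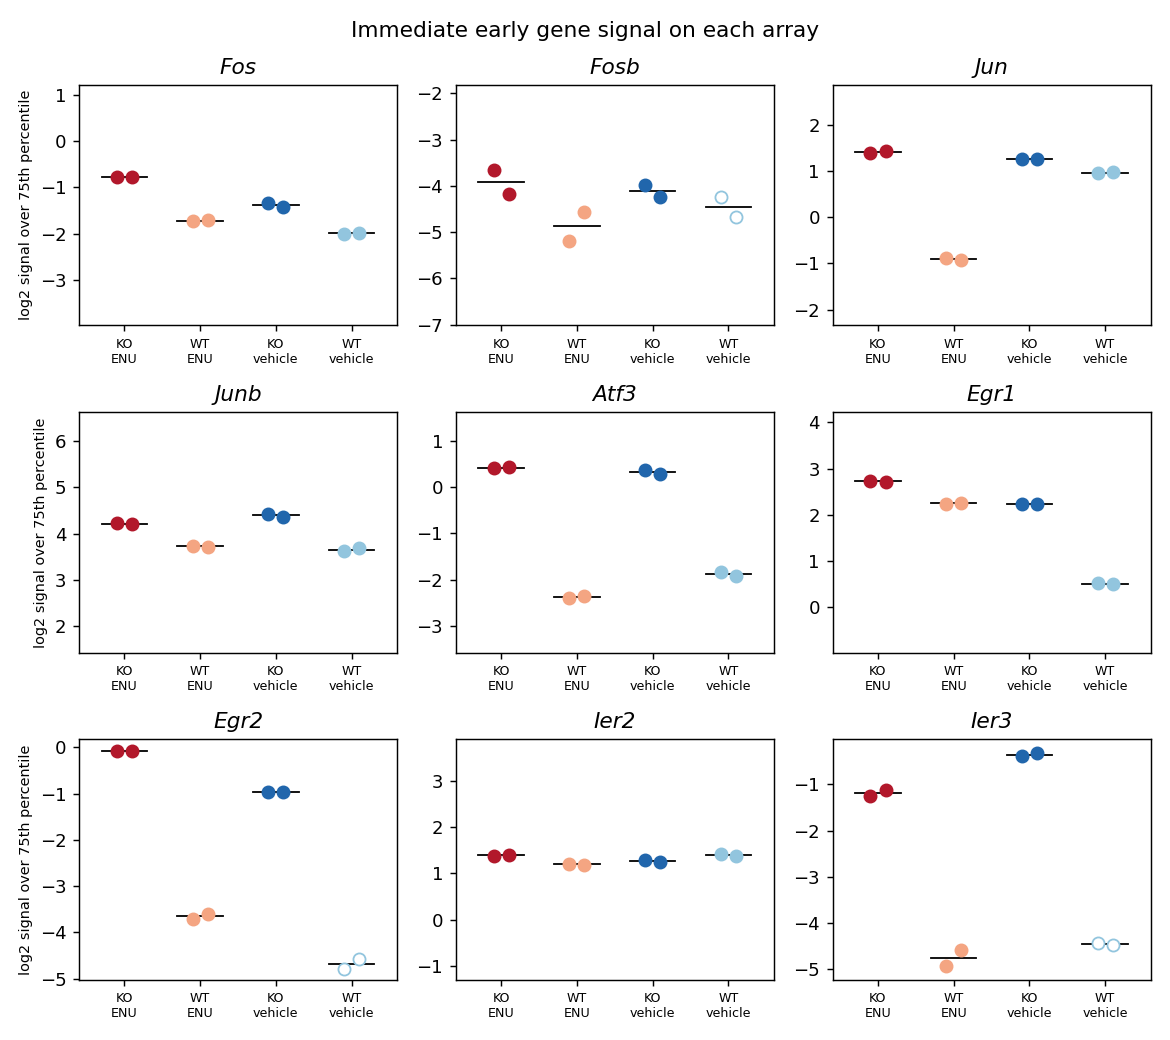
Log2 signal over the 75th percentile (vertical axis, each panel spanning the same number of units) for 9 immediate early genes in the 4 groups (horizontal axis). Points are arrays a and b, lines their mean, and open points mark groups in which neither array was well above background. All KO arrays lay above all WT arrays for Egr2, Ier3 and Atf3, by 2.11 log2 units or more. The same held by 0.28 to 0.47 for Fos, Jun and the brighter Junb probe. Jun was lowest in WT ENU, and Egr1 was lowest in WT vehicle.

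Fos is the AP-1 subunit that pairs with Jun proteins and does not bind DNA as a dimer with itself. Its probe, at chr12:83478431-83478490 (mm7), had values of -0.79 and -0.77 on the KO ENU arrays, -1.72 and -1.72 in WT ENU, -1.33 and -1.43 in KO vehicle, and -2.01 and -1.98 in WT vehicle. Both KO groups lay above both WT groups, and each ENU group lay above the vehicle group of its genotype, with no overlap of arrays. Fos was 1.92-fold higher in KO than in WT livers after ENU and 1.53-fold higher on vehicle. The average genotype difference of 0.78 ± 0.20 (SE, n = 2 RNA samples per genotype) did not pass the limma test (adjusted p = 0.0538). ENU livers were 1.52-fold higher than vehicle livers in KO, and 1.21-fold in WT.

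Fosb, a close relative of Fos, was dim. Its values were -3.65 and -4.17 in KO ENU, -5.19 and -4.57 in WT ENU, -3.97 and -4.25 in KO vehicle, and -4.23 and -4.68 in WT vehicle. Arrays a and b of a group differed by up to 0.62, and every group overlapped its neighbour in the order of levels. Only 1 of 2 WT ENU arrays and neither WT vehicle array was well above background, and the genotype difference of 0.66 ± 0.24 (SE) did not pass the limma test (adjusted p = 0.107). Fosl1, which encodes the subunit Fra-1, was not well above background on any of the 8 arrays, with values from -6.09 to -5.08, and was not tested.

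Jun encodes c-Jun, which binds DNA as a dimer with itself or with Fos and is known to be needed for normal hepatocyte division after partial hepatectomy in mice. Its probe, at chr4:94441779-94441838 (mm7, minus strand), gave 1.39 and 1.44 in KO ENU, -0.89 and -0.92 in WT ENU, 1.25 and 1.26 in KO vehicle, and 0.95 and 0.97 in WT vehicle. The WT ENU arrays stood apart from the other 3 groups, which lay within 0.48 log2 units of each other. The probe is spotted 10 times per array. In WT ENU its spots ranged from -1.02 to -0.78, while the lowest spot in WT vehicle was at 0.89. In KO livers Jun was 1.12-fold higher after ENU than on vehicle, and in WT livers it was 3.65-fold lower. The ENU difference in KO minus that in WT was 2.02, and 2.15% of all genes tested had a difference of differences at least as large in size. This difference was not tested, since it is the only residual of the fit. The average genotype difference of 1.30 ± 0.54 (SE, n = 2 RNA samples per genotype) had an adjusted p of 0.138 by limma.

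**Figure D2:**
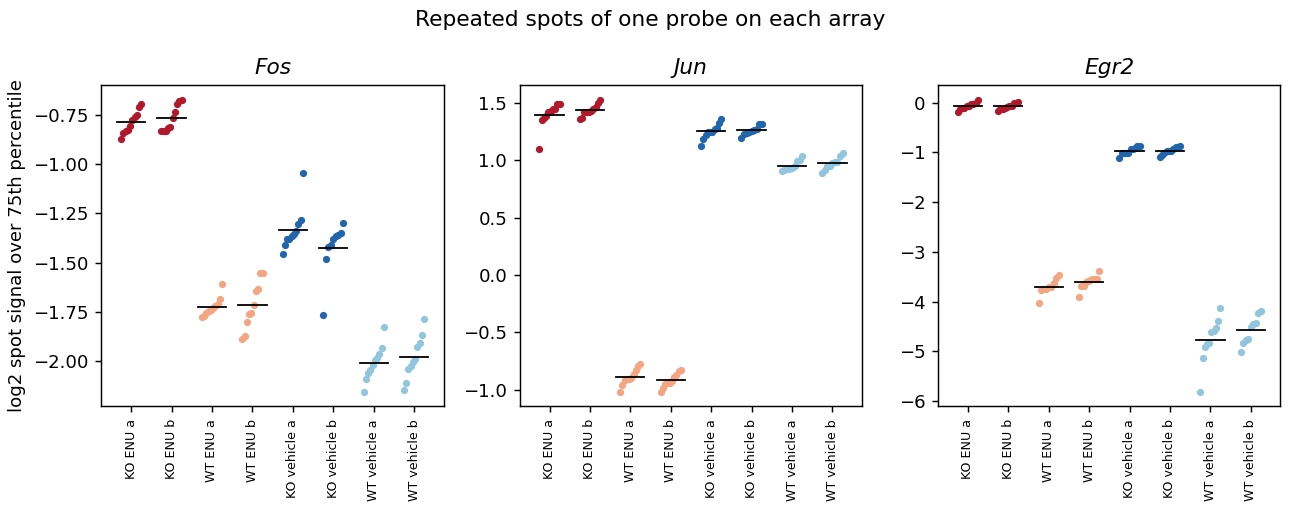
Log2 signal over the 75th percentile for each repeated spot of the Fos, Jun and Egr2 probes (vertical axes, scaled separately) on each of the 8 arrays (horizontal axis), with spots sorted by value within an array and lines at array means. The Jun spots of both WT ENU arrays, from -1.02 to -0.78, lie below every Jun spot of the other 3 groups.

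Junb is an AP-1 subunit that often counteracts Jun. Its brighter probe, at chr8:83563097-83563156 (mm7), gave 4.23 and 4.21 in KO ENU, 3.73 and 3.72 in WT ENU, 4.43 and 4.36 in KO vehicle, and 3.63 and 3.68 in WT vehicle. Both KO groups lay above both WT groups, by 1.41-fold after ENU and 1.67-fold on vehicle, but the average of 0.62 ± 0.19 (SE) did not pass the limma test (adjusted p = 0.0787). A second Junb probe, at chr8:83563059-83563118, shares 22 bases with the first and did not show the difference. It gave 3.27 and 3.32 in KO ENU, 3.35 and 3.23 in WT ENU, 3.45 and 3.45 in KO vehicle, and 3.52 and 3.53 in WT vehicle, an average genotype difference of -0.04 (limma adjusted p = 0.894 over all probes). The Junb probes thus disagree.

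Atf3, a factor of the ATF/CREB family that is low in resting liver and induced by injury and cell stress, rose in KO livers. Its probe, at chr1:190724174-190724233 (mm7), gave 0.40 and 0.43 in KO ENU, -2.39 and -2.35 in WT ENU, 0.36 and 0.27 in KO vehicle, and -1.84 and -1.93 in WT vehicle. The lowest KO array lay 2.11 log2 units above the highest WT array. Atf3 was 6.89-fold higher in KO than in WT livers after ENU and 4.60-fold higher on vehicle, an average of 2.49 ± 0.23 (SE, n = 2 RNA samples per genotype, limma adjusted p = 0.0117). The ENU difference was 0.10 in KO livers, and in WT livers Atf3 was 1.40-fold lower after ENU than on vehicle.

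**Figure D3:**
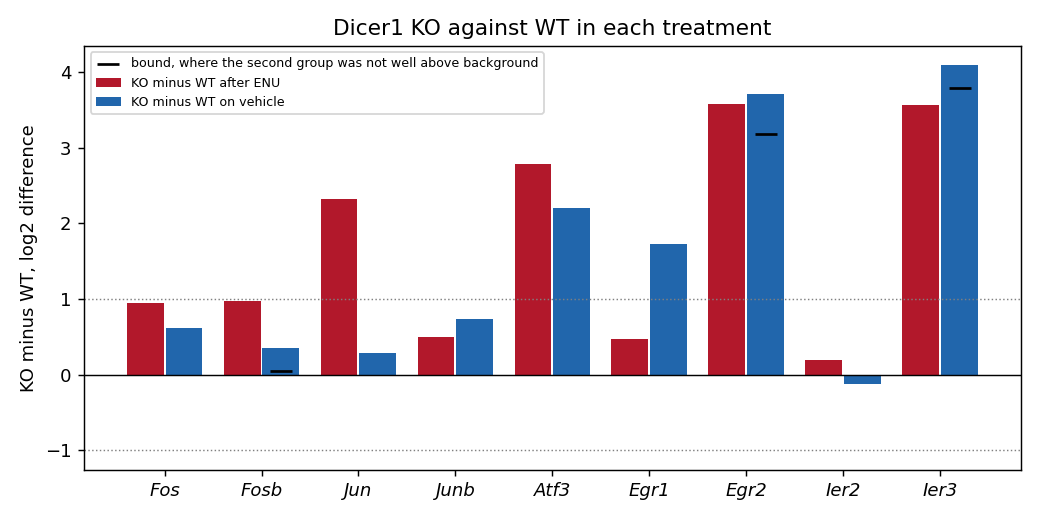
Log2 difference of KO minus WT livers (vertical axis) after ENU and on vehicle for 9 immediate early genes, with dotted lines at 2-fold and black marks at the bound where WT was not well above background. Egr2, Ier3 and Atf3 pass 2-fold in both treatments, Jun only after ENU and Egr1 only on vehicle.

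Egr1 encodes the zinc finger factor that relays ERK signals to GC-rich promoters. It had values of 2.74 and 2.72 in KO ENU, 2.24 and 2.26 in WT ENU, 2.23 and 2.24 in KO vehicle, and 0.52 and 0.50 in WT vehicle. WT vehicle was the low group, and WT ENU and KO vehicle differed by 0.015 log2 units. ENU livers were 1.41-fold higher than vehicle livers in KO and 3.33-fold higher in WT. The ENU difference in KO minus that in WT was -1.24, a size reached or passed by 6.90% of genes, and it was not tested. The average genotype difference was 1.10 ± 0.36 (SE, limma adjusted p = 0.0888) and the average ENU difference 1.11 ± 0.36 (SE, limma adjusted p = 0.209).

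Egr2, also called Krox20, is known from hindbrain patterning and myelination and is also used by lymphocytes and macrophages. Its probe, at chr10:67145376-67145435 (mm7), gave -0.07 and -0.08 in KO ENU, -3.70 and -3.61 in WT ENU, -0.97 and -0.97 in KO vehicle, and -4.78 and -4.57 in WT vehicle. The lowest KO array lay 2.64 log2 units above the highest WT array. Of the Egr2 spots used in WT vehicle, 0 of 10 were well above background on array a and 2 of 9 on array b, so folds against that group are bounds. Egr2 was 12.0-fold higher in KO than in WT livers after ENU. On vehicle the bound with the deposited background correction was 9.09-fold. The average log2 difference was 3.65 ± 0.18 (SE, n = 2 RNA samples per genotype, limma adjusted p = 0.00997). That average takes WT vehicle at its own signal and so is no bound. ENU livers were 1.86-fold higher than vehicle livers in KO, and in WT the bound was 1.41-fold. The average ENU difference of 0.96 ± 0.18 (SE) did not pass the limma test (adjusted p = 0.160). With normexp, the genotype difference was 2.34 after ENU and 1.69 on vehicle, and the ENU difference in WT was 0.085. On the log2 scale the bounds are 3.18 for genotype on vehicle and 0.50 for ENU in WT. Both lie above the normexp values, so they depend on the background correction.

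Ier3, also called IEX-1, is a stress-induced regulator of cell survival downstream of NF-kB and p53. Its probe, at chr17:33924245-33924304 (mm7), gave -1.24 and -1.13 in KO ENU, -4.92 and -4.59 in WT ENU, -0.39 and -0.33 in KO vehicle, and -4.43 and -4.47 in WT vehicle. All KO arrays lay above all WT arrays. Only 1 of 2 WT ENU arrays and neither WT vehicle array was well above background. Ier3 was 11.9-fold higher in KO than in WT livers after ENU, a fold that takes in 1 dim WT array. On vehicle the bound with the deposited background correction was 13.8-fold. The average log2 difference was 3.83 ± 0.22 (SE, n = 2 RNA samples per genotype, limma adjusted p = 0.0101), with the dim WT arrays at their own signal. Ier3 passed the filter on dim probes only through its KO groups, where it was high, so this call is a description. In KO livers Ier3 was 1.77-fold lower after ENU than on vehicle, and in WT livers, where signal was near background, no direction is given. With normexp the genotype difference was 1.56 after ENU and 2.02 on vehicle. The vehicle value lies under the bound, which is 3.79 on the log2 scale, so the bound depends on the background correction.

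Ier2, a small nuclear protein of the immediate early class, gave 1.38 and 1.40 in KO ENU, 1.21 and 1.19 in WT ENU, 1.29 and 1.24 in KO vehicle, and 1.41 and 1.37 in WT vehicle with its probe at chr8:83243584-83243618 (mm7). The groups spanned 0.22 log2 units, and KO ENU and WT vehicle overlapped. The genotype difference was 0.04 ± 0.20 (SE, limma adjusted p = 0.896). A second Ier2 probe was well above background on 2 of 8 arrays and was not used.

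Read as a group, the members had a median log2 difference of KO minus WT livers of 0.97 after ENU, against -0.10 over all genes tested, and of 0.74 on vehicle, against -0.14. Of the 9 tested, 4 were at least 2-fold higher in KO after ENU (Jun, Atf3, Egr2 and Ier3), where 16.2% of all genes were. On vehicle 4 were (Egr1, Atf3, Egr2 and Ier3), where 17.3% of all genes were. None was 2-fold lower in KO. Fosb, Egr2 and Ier3 passed the filter on dim probes without being well above background in every group, Fosb and Ier3 through their KO groups and Egr2 through all groups other than WT vehicle, so the counts and medians over members are descriptions. With only probes well above background on all 8 arrays, the 2-fold counts were 2 of 6 members after ENU and 2 of 6 on vehicle.

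For ENU against vehicle the median was 0.16 in KO livers, against -0.06 over all genes, and -0.19 in WT livers, against -0.04. In KO livers 0 of 9 members were 2-fold apart, where 9.75% of all genes were. In WT livers the signal of Egr1 and Egr2 was past 2-fold on the high side, where that of 7.18% of genes was, and Jun was past it on the low side, where 5.49% were. For Egr2 the signals were 2.03-fold apart, but WT vehicle was not well above background. The bound with the deposited background correction is 1.41-fold. Each genotype comparison shares its groups with the treatment comparisons, so the 4 sets of differences are not independent.

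**Figure D4:**
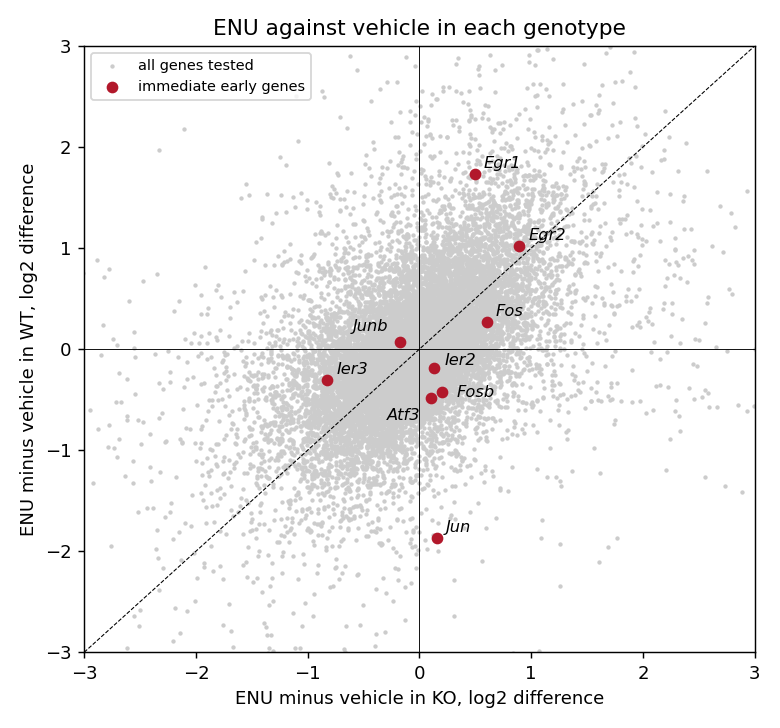
Log2 difference of ENU minus vehicle in KO livers (horizontal axis) and in WT livers (vertical axis) for 18153 genes (grey, 148 outside the axes) and 9 immediate early genes (red), with a dashed line of equal differences; genes are placed by their signal, also where it was not well above background. Jun lies far below the line, with 0.16 in KO and -1.87 in WT, and Egr1 above it, with 0.49 in KO and 1.74 in WT.

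The members did not share a single profile. The order of groups was KO ENU, KO vehicle, WT ENU, WT vehicle for Fos and Egr2, and KO ENU, KO vehicle, WT vehicle, WT ENU for Jun and Atf3. For Junb and Ier3, KO vehicle was highest, followed by KO ENU. The root mean square distance of single members from the members' mean profile over the 4 RNA samples was 0.453 to 1.17 log2 units. Of all genes tested, 75.7% lay nearer to that mean profile than the farthest member, Ier3. The non-members nearest to that mean profile were Spsb1 at 0.0245, Cbr3 at 0.0303, Hcls1 at 0.0379, Card10 at 0.0419 and Id1 at 0.0434. With 4 points per profile this is a description only.

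Of 13 other AP-1 family genes and bZIP partners, all measured, 4 rose in KO livers by limma and none fell, where 16.9% of all genes were called higher and 15.3% lower. They were Jdp2, which pairs with Jun proteins, with log2 differences of KO minus WT of 2.10 after ENU and 1.19 on vehicle, Fosl2 (Fra-2) with 1.65 and 0.81, and the lymphoid and myeloid partners Batf with 1.42 and 1.61 and Batf3 with 0.85 and 0.87. The list's median was 0.50 in the fit, against -0.12 over all genes. Of 5 other EGR family genes and NAB corepressors, 3 were measured, and Wt1 was the 1 called higher in KO, with WT groups not well above background. Nab2, which restrains EGR proteins, had ENU differences of -0.15 in KO livers and 1.12 in WT livers.

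Of 36 other immediate early genes, 33 were measured, and 12 rose and 2 fell in KO livers by limma, against 16.9% and 15.3% of all genes, with a median of 0.73. Ccn2 (connective tissue growth factor) had differences of KO minus WT of 3.59 after ENU and 1.98 on vehicle. Klf6, a zinc finger factor, had 2.66 and 2.75, and Ccn1 (Cyr61), a matrix protein, had 2.44 and 2.09. Gadd45b, a stress-induced signalling protein, had 3.69 after ENU and 1.45 on vehicle. Of the 33, 0 were at least 2-fold lower after ENU than on vehicle in KO livers, where 5.42% of all genes were, and 9 in WT livers, where 5.49% were. In WT livers the ENU difference was -2.32 for Gadd45b, -1.96 for Cebpd, -1.89 for Ccn2, -1.77 for Cebpb, -1.67 for Plk3, -1.39 for Bhlhe40, -1.35 for Trib1, -1.32 for Nr4a2 and -1.20 for Errfi1, the last 7 named after their values were seen. The same 9 genes had ENU differences between -0.75 and 0.34 in KO livers, and the difference between genotypes was not tested.

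**Figure D5:**
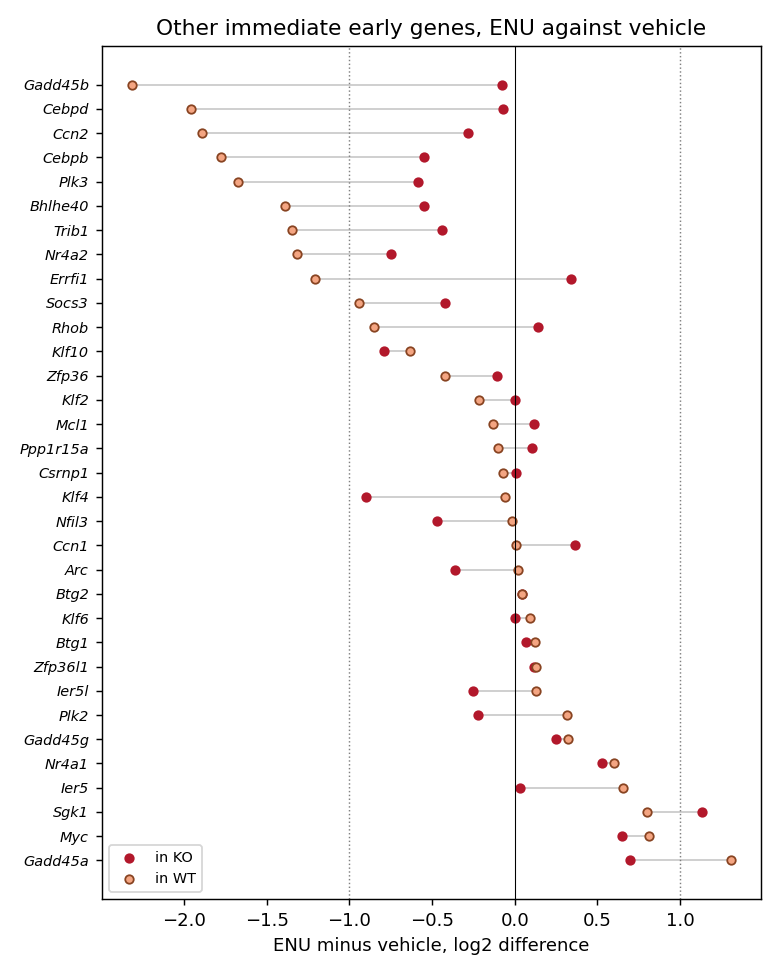
Log2 difference of ENU minus vehicle (horizontal axis) for 33 other immediate early genes (rows, sorted by the value in WT), in KO livers (red) and in WT livers (orange), with dotted lines at 2-fold. In KO livers no gene lies past 2-fold on the low side, and in WT livers 9 do, from Gadd45b at -2.32 to Errfi1 at -1.20.

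Heat shock genes, listed because they also move when tissue is handled, were lower after ENU in both genotypes by size. Of 13 measured, 5 were at least 2-fold lower in KO livers and 8 in WT livers, where 5.42% and 5.49% of all genes were. The medians were -0.72 in KO and -1.37 in WT, against -0.06 and -0.04 over all genes. Hspb1, a small chaperone, had -1.35 in KO and -2.96 in WT, and Hsph1 had -2.14 in KO and -2.80 in WT. Between genotypes 1 heat shock gene, Hspd1, fell in KO livers and 0 rose, where 15.3% of all genes tested fell and 16.9% rose. Their part in the values of the members was not tested.

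Among the signalling genes upstream, 23 of the 24 listed members of the ERK and JNK cascades and serum response factor partners were measured, and 4 rose and 2 fell in KO livers, with a median of -0.01. That is 6 of 23 genes called, where 32.2% of all genes were, 16.9% as higher and 15.3% as lower. The 4 genes that rose included the kinases Map3k1, with differences of 1.61 after ENU and 2.01 on vehicle, and Mapk3 (ERK1), with 1.32 and 1.42, and Map2k2 (MEK2), with -1.13 and -1.10, was among those that fell. Of 19 measured growth factor ligands and receptors, 9 rose and 2 fell, and of these genes Pdgfb was not well above background in either WT group, nor Btc, Il6 and Tnf in WT vehicle. Hbegf, a ligand of the EGF receptor, had 2.09 after ENU and 2.88 on vehicle, and Pdgfra, a receptor of mesenchymal cells, had 2.19 and 2.26. Of 14 measured feedback phosphatases and inhibitors, 6 rose and none fell, to be read against the same shares of all genes. Dusp2, which inactivates MAP kinases, had 2.33 and 2.09, and Spry1, which restrains receptor tyrosine kinase signals, had 1.99 and 1.82.

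Of 23 reported AP-1 and EGR target genes, 17 rose in KO livers and none fell, where 16.9% and 15.3% of all genes did, with a median of 1.94 in the fit against -0.12 over all genes. The chemokine Ccl2 had differences of KO minus WT of 3.48 after ENU and 5.63 on vehicle. Plaur, the urokinase receptor, had 2.62 and 4.05, and Spp1 (osteopontin) had 2.95 and 3.58. Ccl2 had ENU differences of -0.025 in KO livers and 2.13 in WT livers. Hmox1, the haem-degrading stress enzyme, had ENU differences of -3.65 in KO livers and -1.58 in WT livers.

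Markers of several other liver and blood cells moved with genotype. Of the markers measured, 10 of 11 for cholangiocytes and progenitors, 11 of 12 for macrophages, 10 of 11 for neutrophils, 6 of 12 for stellate cells and fibroblasts, 6 of 11 for T and NK cells and 3 of 8 for B cells rose in KO livers. In KO livers 7 of 11 hepatocyte markers fell, as did 2 of 11 T and NK cell markers, 1 of 12 endothelial markers and 2 of 4 erythroid markers, and no endothelial or erythroid marker rose. These counts are to be read against all genes tested, of which 16.9% were called higher and 15.3% lower in KO. The summed macrophage marker signal, in units of the 75th percentile, was 349 to 350 in KO ENU, 110 to 112 in WT ENU, 214 to 220 in KO vehicle and 68.8 to 69.5 in WT vehicle. The summed cholangiocyte and progenitor signal was 78.1 in KO ENU, 16.2 to 16.4 in WT ENU, 78.2 to 79.3 in KO vehicle and 14.7 to 14.8 in WT vehicle. Spp1, also counted among the target genes above, is one of these markers and makes up most of the sum in the KO groups. Its log2 values were 5.46 and 5.47 in KO ENU, 2.53 and 2.49 in WT ENU, 5.65 and 5.62 in KO vehicle, and 2.07 and 2.05 in WT vehicle. The neutrophil sum was 49.9 to 50.5 in KO ENU, 7.45 to 7.58 in WT ENU, 36 to 36.7 in KO vehicle and 4.8 to 4.83 in WT vehicle. In the KO groups every measured marker of these types was well above background on at least 1 array. Itgam, Elane, Camp and Cxcr2 were so on neither WT ENU array, and Epcam, Sox4, Cldn4, Itgam, Cx3cr1, Ccr2, Elane, Ngp, Cxcr2, Cd8a, Cd2 and Cd79a on neither WT vehicle array. In whole-liver RNA, more cells of a type and more RNA per cell cannot be told apart, and the part of these cell types in the values of the members was not tested.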

How the data were processed

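The deposited intensity values of the 8 arrays were corrected for background by Agilent Feature Extraction, version 10.7.1.1 per the file headers and 10.5.1 per the submitters' processing notes. Of the 45018 spots on an array, 43379 held probes other than controls. Probe coordinates are those of the files (mm7, NCBI35). Symbols were updated through the RefSeq table of GRCm38.p6, which named 22951 probes through an accession, 6659 through a symbol and 3109 through a synonym. For 8455 probes the name in the files was kept.

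The deposited intensity was put on the log2 scale after division by the 75th percentile of its array. Control and outlier spots were left out and spots of a probe averaged. A probe counted as well above background on an array where most of its spots did, and had to do so on both arrays of at least 1 group (27231 probes). The brightest probe stood for a gene (18153 genes). For a bound, the dim group's value on each array was set to the lowest signal of any probe well above background there, or to the dim probe's own signal where that was higher. A bound holds only for the deposited background correction, and with normexp some differences lay under their bound.

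The 4 RNA samples were fitted with limma 3.58.1 in R 4.3.3, with genotype and treatment as terms. "Rose" and "fell" are used for its calls. The number of arrays limits the precision. Members and lists were chosen with earlier results of these data known. Genes named beside the 10 members are, per list, at most the 4 largest called genotype differences and the 2 largest ENU differences in WT past 2-fold, and the 5 nearest profiles. Beyond this rule, further immediate early genes past 2-fold lower after ENU in WT and the markers near background were named after their values were seen. Alternatives were normexp background correction with an offset of 50, quantile normalization, median centring, other filters on dim probes, the mean of a gene's probes, a fit of every probe and leaving out each array.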

Additional observations from a re-analysis of the deposited data

Results flagged for a closer look

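For 5 members the ENU difference had opposite signs in the 2 genotypes, which is what drew attention to them, and for none of them was the difference between genotypes tested. Jun had an ENU minus vehicle difference of 0.16 in KO livers and -1.87 in WT livers, so that KO minus WT was 2.02. For Fosb the differences were 0.20 in KO and -0.42 in WT, 0.62 apart, which is the size of the largest gap between arrays a and b of that probe. The Fosb difference in KO was -0.031 with normexp and -0.057 without KO ENU array a, so that both genotypes then had the same sign, and neither WT vehicle array was well above background. Atf3 had 0.10 in KO and -0.49 in WT, 0.58 apart. Ier2 had 0.13 in KO and -0.19 in WT, 0.32 apart. Junb had -0.18 in KO and 0.07 in WT, a difference of -0.25. The second Junb probe had the same sign in both, with -0.15 in KO and -0.24 in WT, and so did the mean of both probes, with -0.16 in KO and -0.083 in WT.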

How the results depend on the processing

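The calls of Atf3, Egr2 and Ier3 as higher in KO livers held under every alternative in which they were tested. With only probes well above background on all 8 arrays, Egr2, Ier3 and Fosb were no longer tested, and the members at least 2-fold apart between KO and WT numbered 2 after ENU and 2 on vehicle, against 4 and 4. Under that filter limma also called Fos (adjusted p = 0.0283), Junb (0.0475) and Egr1 (0.0484) higher in KO, and Junb was called with normexp (0.0379) and with quantile normalization (0.0303, difference 1.11). Since arrays a and b count as 1 RNA sample, leaving out an array shows array noise only and cannot show how calls depend on the sample. Leaving out each array in turn gave 3 to 3 members called for KO against WT, 0 to 0 for ENU, 4 to 5 past 2-fold between KO and WT after ENU, 4 to 4 on vehicle, 0 to 0 for ENU in KO and 2 to 3 for ENU in WT. The fifth was Fosb, without KO ENU array b or WT ENU array b. The member lost in WT was Egr2, without WT ENU array b or WT vehicle array a, and also with normexp and median centring. Signs turned for small differences: Fosb KO minus WT was -0.13 with normexp, and its ENU difference ranged from -0.26 to 0.045 over arrays left out; the ENU difference of Junb was 0.023 with quantile normalization; Ier2 KO minus WT was -0.16 with median centring, and its ENU difference was 0.084 with normexp and 0.0075 with quantile normalization. The cause was not tested. Over all genes, 3062 were called higher and 2778 lower in KO; the split was 2400 and 4170 with normexp, 2764 and 4779 with median centring, 2159 and 3732 with probes above background on all arrays, and 2879 and 1922 with quantile normalization. Median centring moved the median of all genes for KO minus WT to -0.28 after ENU and -0.36 on vehicle, against -0.10 and -0.14. For ENU, limma called 3 genes with normexp and 3 with that filter, no member among them. No paired analysis was possible because arrays a and b of a group differed by no more than spot noise and were counted as 1 sample, so the replicate block was not run. Signal near background limits Fosb, Fosl1, Egr2 and Ier3 in WT.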
